A study of Homo sapiens with 12 samples.

Results

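DEAD box (DDX) and DEAH box (DHX) proteins are enzymes that use ATP to unwind or remodel RNA and RNA-protein complexes, and they are named after a short run of amino acids in their ATPase core. All genes whose symbol in the annotation of the array starts with DDX or DHX and a digit were taken, which gave 53 genes with 82 features (spots of the array) of 43376. The log ratios did not enter this choice. On these arrays 52 of the 82 features, from 39 of the 53 genes, had a value.

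RNA of MIA PaCa-2 cells, an established human pancreatic carcinoma line, was measured on 12 two-colour whole genome arrays. Each array set cells treated with LE, a leaf extract of Achyranthes aspera dissolved in methanol, at 34 μg/mL against control cells kept in 2% methanol. Treatment for 24 h was covered by 6 arrays, that for 48 h by 4 and that for 72 h by 2, and the extract is a mixture tested in 1 line at 1 concentration. The LE sample carried Cy-5 on replicates 2, 3 and 5 of the 24 h arrays, replicates 2 and 3 of the 48 h arrays and replicate 2 of the 72 h arrays, and Cy-3 on the remaining 6.

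Helicases of this family act at nearly every step in the life of an RNA. They drive the rearrangements of the spliceosome, release messenger RNA from the nuclear pore, open the structured leaders of messages for translation, take part in the making of ribosomes, and recognise viral RNA. Most of them are needed in every growing cell, while a few are made mainly in germ cells. DHX9, also called RNA helicase A, acts in transcription and in the handling of double-stranded RNA, and its features were followed singly.

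Some properties of the arrays bear on every value that follows. The deposited values are log ratios per feature, and neither the labels nor the file state which RNA is on top. They were read as log2 of LE over control. This direction was taken as likely, since the sample titles put treated before untreated and the study averaged the 72 h columns as deposited. The reading in which the arrays with LE in Cy-3 are turned is called "turned by the dye labels". In it the mean over the time points changed sign for 23 of the 52 helicase features (44.2%, against 47.7% of all features). A sign below is therefore that of the deposited ratios, and the turned value is given for the DDX and DHX features the text dwells on. Arrays of the same dye orientation correlated over all features at r = -0.018 to 0.50 (median 0.226, 30 pairs), and arrays of opposite orientation at r = -0.34 to 0.26 (median -0.034, 36 pairs). Array 1 at 24 h correlated with the other 11 at r = -0.042 to 0.056 only. The values of arrays with LE in Cy-5 carry up to 10 significant digits and those of arrays with LE in Cy-3 at most 6, so the orientations were written out in different ways before deposit.

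Features with the same annotation also did not share their ratios. Features were grouped by gene and transcript, in groups of at least 8 measured features, which may hold different probes. The intraclass correlation of the log ratios (the share of spread common to a group) was -0.016 to 0.0072 on the 12 arrays. In 15 other orders of the rows it reached 0.033 at most, so the pairing of values and features was kept as deposited. The ratio of a feature is therefore reported as that of a feature, with its number in the file, and cannot be taken as the ratio of the gene.

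As a check of the cell type, KRT8 had a value on 1 of 2 features, KRT18 on 1 of 4 and VIM on 2 of 2. The markers of leukocytes (PTPRC, 0 of 11 features), endothelium (PECAM1, 0 of 1), beta cells (INS, 0 of 1) and acinar cells (PRSS1, 0 of 1) had none. CD79A, a B cell gene, had a value on its only feature, and COL1A1, a collagen of fibroblasts, on 10 of 10 features, so having a value does not by itself mark a gene that the line is known for.

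The first question was which helicases gave a signal good enough to be measured. A feature had a value on all 12 arrays or on none, and according to the methods only features that passed every quality criterion on all arrays were kept. These criteria name an opposite change at dye-swap, yet 54.1% of all measured features, and not all or none, lay on 1 side of 0 on both 72 h arrays. Having a value therefore does not mean that the arrays of a dye-swap agreed. The helicases had a value on 63.4% of features (exact Clopper-Pearson 95% interval 52.0 to 73.8%), against 39.5% of all features of the array and 42.9% of those with 1 symbol. By genes, 39 of 53 (73.6%) had at least 1 measured feature, against 8828 of 18334 genes (48.2%). The interval takes features as independent, although several share a gene. DDX features had a value in 39 of 59 cases (66.1%) and DHX features in 13 of 23 (56.5%), a gap within the overlap of their intervals (52.6 to 77.9% and 34.5 to 76.8%).

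The measured share differed among the roles. Of the helicases of the spliceosome, 10 of 12 genes were measured (13 of 16 features, 81.2%), and only DHX34 and DHX40 had no value. Of those of ribosome biogenesis, 12 of 15 genes were measured, and DDX31, DDX55 and DHX33 were not. The helicases of messenger RNA export had 5 of 6 features with a value (83.3%), the cofactors of transcription and microRNA processing 6 of 9 (66.7%), and those of translation and messenger RNA storage or decay 9 of 17 (52.9%). Roles overlap in DHX15, DDX39B, DHX34 and DDX25, which are counted in 2 roles each.

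The germline helicases formed the only role without any value. DDX4, a classic marker of germ cells, DDX25, which is known from the testis, and DDX43 and DDX53, which belong to the cancer-testis genes, had 0 of 4 features measured. The remaining genes without a value were DHX57, DDX59, DHX32, the Y-linked DDX3Y, and DDX11L2, a pseudogene related to DDX11. A missing value gives no direction and no bound on the level of a gene. It was also not settled by the gene alone, since 8 genes (DDX10, DDX17, DDX3X, DDX50, DDX60, DDX60L, DHX29 and DHX30) had measured and blank features side by side, and DDX17 was measured on only 1 of its 4 features. For 30 genes the ratio rests on a single measured feature.

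**Figure D1:**
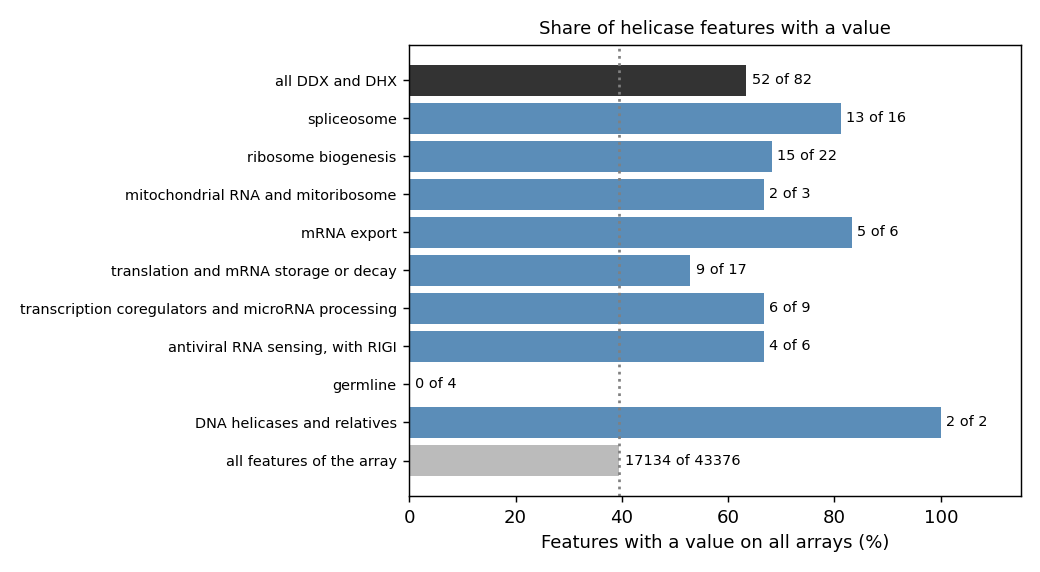
Share of features with a value on all 12 arrays (x axis, percent) for all DDX and DHX features, for each role list and for all features of the array, with counts beside the bars; the dotted line marks the share of all features. The helicases stand at 63.4% against 39.5% for the whole array, the germline list at 0 of 4, and the antiviral list includes RIGI, a sensor whose current symbol falls outside the family names.

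The second question was whether the helicases moved under LE. No helicase feature passed an FDR of 0.01 at any single time, nor in the mean of the 3 times (limma, p-values adjusted by Benjamini-Hochberg over 17134 features), where 0.0% of all features passed at each time point and 0.0525% in the mean. At an unadjusted p under 0.05 there were 3 of 52 features at 24 h (5.77%, against 5.78% of all features), 4 at 48 h (7.69%, against 9.29%) and 6 at 72 h (11.5%, against 8.99%). In the mean over the time points 8 had such a p (15.4%, against 15.9%), of which 7 were below 0 and 1 was above (8.48% and 7.45% of all features). Without regard to sign, these shares lie near those of the whole array. The split by sign in the mean lay further below 0 than in the array and was not tested. Turned by the dye labels it was 7 above 0 and 4 below (21.2%, against 20.5% of all features, 1831 above and 1682 below). At an FDR of 0.05, 0 helicase features passed at 24 h, 48 h or 72 h, where 0.0175% of all features did at 72 h. In the mean, where 1.24% of all features passed this threshold, 2 helicase features did, a feature of DHX9 below 0 and a feature of DDX6 above 0. Neither of them passed with the replicate number as a fixed block in the model. In these bulk samples of 1 line, a change in all cells and a change in part of them cannot be told apart.

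The family as a whole stayed close to the middle of the array. The median log2 ratio of the 52 features at 24, 48 and 72 h was 0.049, 0.095 and 0.050, against 0.019, 0.0024 and 0.042 for all features, and the median of the means over time was 0.068, against 0.025. Above 0 stood 31 of 52 features at 24 h (59.6%, against 53.4%), 31 at 48 h (59.6%, against 50.3%), 28 at 72 h (53.8%, against 54.3%) and 29 in the mean (55.8%, against 54.0%). The medians were small beside the spread among the features, whose SD at 24, 48 and 72 h was 0.27, 0.38 and 0.58, against 0.27, 0.38 and 0.50 for all features. The median at 48 h was -0.013 without array 2 at 48 h, and that at 72 h was -0.032 without array 1 and -0.10 without array 2 at 72 h. A log2 ratio of at least 1 in size was reached by 0 features at 24 h (0.239% of all), 1 at 48 h (1.86%) and 4 at 72 h (7.69%, against 5.51%).

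Agreement between arrays was low within the family, as it was over all features. No helicase feature lay on the same side of 0 on all 12 arrays, as did 0.414% of all features. On every array of a time point, the same side was kept by 2 of 52 features at 24 h (3.85%, against 2.81%), by 11 at 48 h (21.2%, against 14.0%) and by 26 at 72 h (50.0%, against 54.1%). The time point means of 23 features (44.2%) all shared their sign, 15 above 0 and 8 below, against 40.8% of all features.

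**Figure D2:**
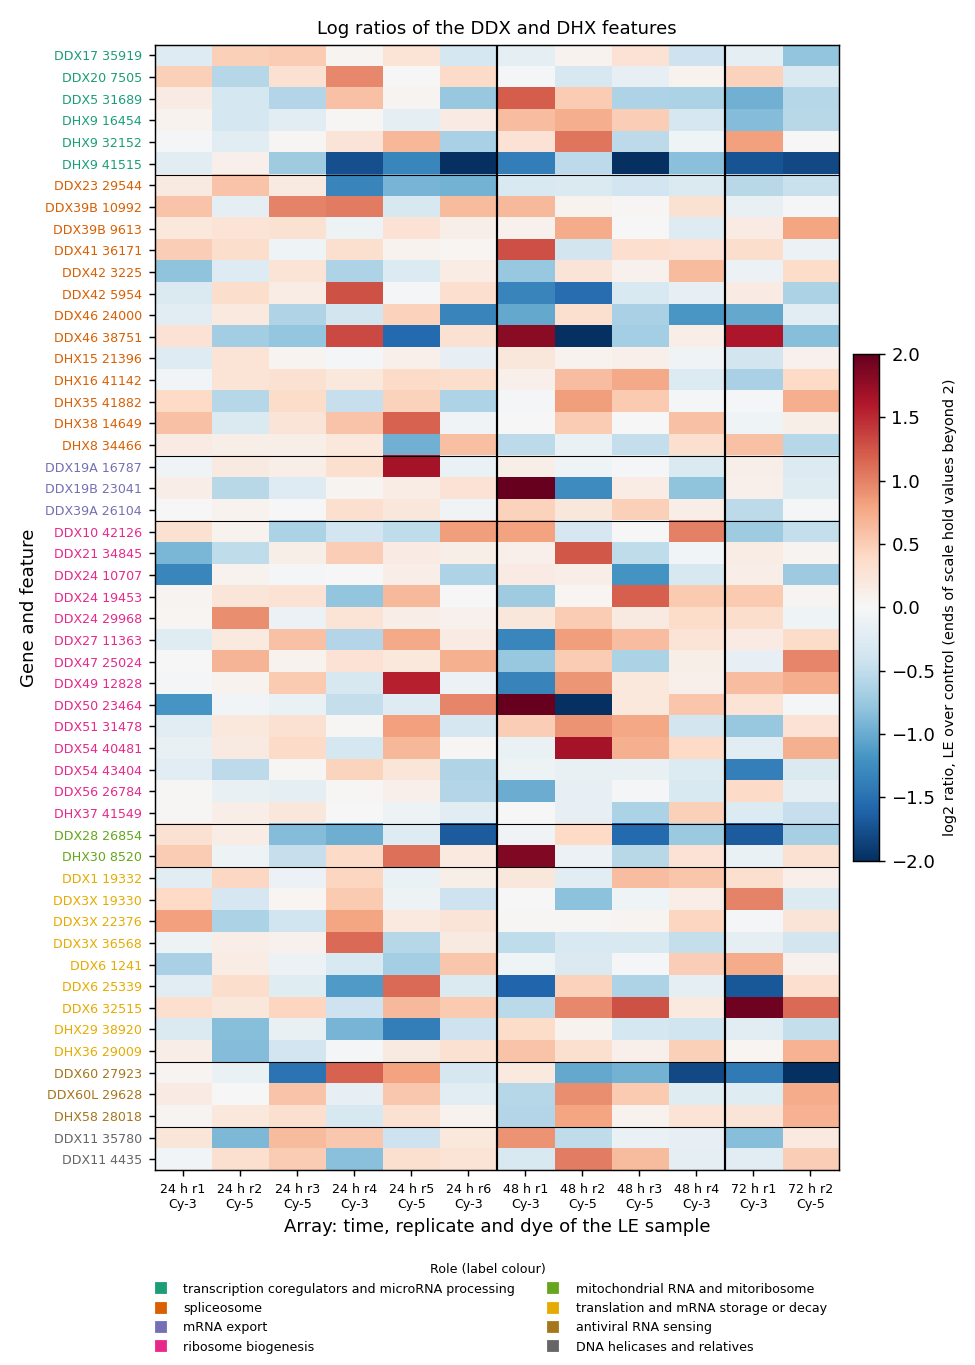
Log2 ratio of LE over control for the 52 measured helicase features (rows, gene and feature number, label colour by role) on the 12 arrays (columns, with time, replicate and the dye of the LE sample); red is above 0, blue below, and the ends of the scale hold values beyond 2. The row of DHX9 feature 41515 is blue on 11 of 12 arrays, while most rows change colour between arrays of a time point.

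Among the transcription coregulators, DHX9 held the lowest mean of the family over the time points and at 24 h and 48 h, while DDX60 was lower at 72 h. Feature 41515 of DHX9 read -0.22, 0.09, -0.71, -1.76, -1.30 and -2.06 on the arrays at 24 h, -1.39, -0.53, -2.15 and -0.83 at 48 h, and -1.72 and -1.81 at 72 h. It was below 0 on 11 of 12 arrays, with array 2 at 24 h as the exception, and array 1 at 24 h was close to 0. The means were -0.99 ± 0.86 (SD, n = 6), -1.23 ± 0.71 (n = 4) and -1.76 ± 0.063 (n = 2). The mean over the time points was -1.33 (SE 0.22, adjusted p = 0.01495 in limma), a ratio of 0.398 of LE over control, and the ninth lowest of 17134 features. The single time points did not pass, with adjusted p = 0.7119, 0.2874 and 0.2219 in limma.

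The other measured features of DHX9 did not repeat this. Feature 32152 read -0.02, -0.21, 0.03, 0.26, 0.67 and -0.65 at 24 h, 0.29, 1.07, -0.53 and -0.08 at 48 h, and 0.83 and 0.01 at 72 h, with a mean of 0.21 (SE 0.17). Feature 16454 read 0.08, -0.36, -0.23, 0.03, -0.19 and 0.17 at 24 h, 0.61, 0.73, 0.49 and -0.34 at 48 h, and -0.87 and -0.56 at 72 h, with a mean of -0.14 (SE 0.13). Both changed sides of 0 from array to array, although the annotation ties all 3 features to the same transcript. On the same arrays feature 41515 lay below feature 16454 by a mean difference of -1.16 ± 0.89 (SD, 11 of 12 arrays) and below feature 32152 by -1.34 ± 0.83 (11 of 12). These differences are a description, with no test, since feature 41515 stood out for its low values on these same arrays. Features 16454 and 32152 differed by -0.17 ± 0.72 (SD, 8 of 12 arrays below 0). The mean of the 3 features was -0.42 for the gene, with adjusted p = 0.115 in limma on gene means.

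The direction of DHX9 feature 41515 hangs on how the ratios are read. Its mean was -1.07 on the 6 arrays with LE in Cy-5 and -1.33 on the 6 with LE in Cy-3, so as deposited it was below 0 in both orientations. Turned by the dye labels, the mean over the time points was 0.064 (adjusted p = 0.9482 in limma), with 0.35 at 24 h. DHX9 also stands on the list that the study chose on these same arrays. The study gives it there as lowered by LE, the side of the deposited reading. The p of this feature is therefore not independent evidence. Without array 1 or array 2 at 72 h its adjusted p in limma was 0.1335 or 0.08157, and its mean kept within -1.40 to -1.22 over the 12 arrays left out in turn.

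DDX5 and DDX17, close relatives that serve the microprocessor of microRNAs and coactivate transcription, had their lowest means at 72 h, and 72 h minus 24 h did not pass the test for either (adjusted p = 0.9997 in limma). DDX5 feature 31689 averaged -0.15 ± 0.51 at 24 h, 0.12 ± 0.90 at 48 h and -0.77 ± 0.28 at 72 h (SD, n = 6, 4 and 2). DDX17 feature 35919 averaged 0.12 ± 0.37, -0.059 ± 0.31 and -0.49 ± 0.42 at the same times. Both arrays at 72 h were below 0 for each gene, but neither passed the test (adjusted p = 0.6432 and 0.7118 in limma). Turned by the dye labels, DDX5 had its highest mean at 72 h (0.20, against -0.15 at 24 h and -0.17 at 48 h), and DDX17 stood at 0.30, 0.24 and -0.30. DDX20, a partner of the SMN complex that assembles small nuclear ribonucleoproteins, averaged 0.080 over the time points, and -0.29 turned by the dye labels. Of the 6 features of this role 2 were above 0 at 72 h (33.3%, against 54.3% of all features, median -0.60). At 24 h 3 were above 0 (50.0%, against 53.4%).

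In the role of translation and messenger RNA storage, DDX6 had the highest mean of the family over the time points and at 72 h, while DDX39B was highest at 24 h and DDX54 at 48 h. DDX6 represses translation and is a core protein of processing bodies. Feature 32515 read 0.34, 0.23, 0.42, -0.41, 0.66 and 0.52 at 24 h, -0.54, 0.97, 1.27 and 0.20 at 48 h, and 1.94 and 1.13 at 72 h. It was above 0 on 10 of 12 arrays, and array 4 at 24 h and array 1 at 48 h were below. The mean over the time points was 0.77 (SE 0.18, adjusted p = 0.04997 in limma), a ratio of 1.70, and the mean at 72 h was 1.53 ± 0.58 (SD, n = 2, adjusted p = 0.2155 in limma).

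Here too the features of the gene parted. DDX6 feature 25339 had a mean of -0.41 (SE 0.24) and feature 1241 a mean of 0.087 (SE 0.15), and the mean of the 3 features was 0.15 for the gene (adjusted p = 0.6495 in limma on gene means). Turned by the dye labels, feature 32515 had a mean of 0.13 and stood at -0.41 at 72 h, while feature 25339 had a mean of 0.63. With each array centred on its median, or with robust variance, feature 32515 no longer passed an FDR of 0.05. Of the 12 fits with an array left out it passed in 2, those without array 4 at 24 h or array 1 at 48 h.

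**Figure D3:**
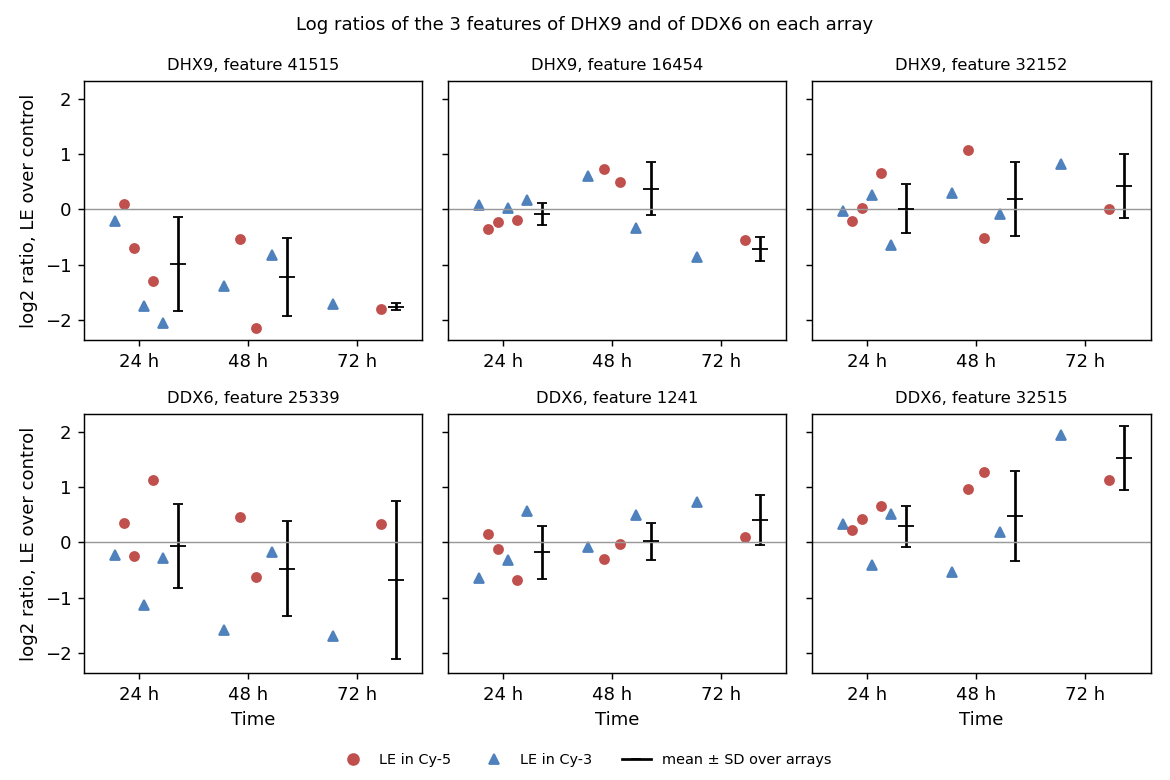
Log2 ratio of LE over control (y axis) at 24, 48 and 72 h (x axis) for the 3 measured features of DHX9 (top) and of DDX6 (bottom); red circles are arrays with LE in Cy-5, blue triangles arrays with LE in Cy-3, and black bars the mean ± SD over the arrays. DHX9 feature 41515 lies between -2.15 and 0.09 and DDX6 feature 32515 between -0.54 and 1.94, while the other features of each gene scatter around 0.

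The other translation helicases gave ratios closer to 0. DHX29, which helps the small ribosomal subunit to scan structured leaders, was below 0 on 6 of 6 arrays at 24 h (feature 38920, -0.28, -0.85, -0.15, -0.92, -1.38 and -0.42, mean -0.67 ± 0.47, unadjusted p = 0.00294 and adjusted p = 0.7119 in limma). At 48 h it averaged -0.078 ± 0.37 and at 72 h -0.35 ± 0.18, and turned by the dye labels the 24 h mean was -0.13. DDX3X, which aids translation of messages with structured leaders, had 3 measured features with means of -0.18, 0.060 and 0.13 and standard errors of 0.15 to 0.16, and -0.087, -0.35 and -0.13 turned by the dye labels. DDX1 (0.20) and DHX36 (0.21), a helicase that resolves G-quadruplexes, were likewise within 2 standard errors of 0.

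DDX60, an interferon-inducible helicase of antiviral defence, had its lowest ratios at the later times. Feature 27923 read 0.05, -0.14, -1.47, 1.19, 0.80 and -0.33 at 24 h, 0.19, -1.02, -0.94 and -1.80 at 48 h, and -1.42 and -2.53 at 72 h. The means were 0.015 ± 0.93 (SD, n = 6), -0.89 ± 0.82 (n = 4) and -1.97 ± 0.79 (n = 2), and the arrays at 24 h spread to both sides of 0. The mean over the time points was -0.95 (SE 0.24, adjusted p = 0.06889 in limma). The difference of 72 h minus 24 h was -1.99, with an unadjusted p = 0.00572 and an adjusted p = 0.9997 in limma. The mean over the time points passed an FDR of 0.05 with a dye term in the model and without array 4 at 24 h or array 1 at 48 h. That mean was -0.31 when turned by the dye labels.

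The relatives of DDX60 in antiviral sensing were on the other side of 0 or near it. DDX60L, its close relative, averaged 0.15, 0.16 and 0.25 at 24, 48 and 72 h (feature 29628, mean 0.19, SE 0.17). DHX58, also known as LGP2, which regulates the sensing of viral RNA, was above 0 on 10 of 12 arrays with a mean of 0.24 (feature 28018, SE 0.14, adjusted p = 0.4475 in limma). RIGI, the founding sensor of this group, averaged 0.019 ± 0.40 at 24 h and 0.57 ± 0.50 at 48 h, where 4 of 4 arrays were above 0 (adjusted p = 0.4747 in limma). The antiviral helicases thus did not share a direction as deposited. Turned by the dye labels, DDX60L had a mean of 0.42 (adjusted p = 0.08265 in limma), DHX58 one of 0.23 and DDX60 one of -0.31.

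In the spliceosome, 6 of 13 features had a mean above 0 (46.2%, against 54.0% of all features) and 7 below. Their median was -0.018, against 0.025 for all features. DDX46, which acts early when the branch site is recognised, had a mean of -0.52 on feature 24000 (SE 0.19, adjusted p = 0.1889 in limma). DDX23, which opens the way for the active spliceosome, had -0.40 (SE 0.18, adjusted p = 0.2926 in limma). When turned by the dye labels both were above 0, DDX46 feature 24000 at 0.40 and DDX23 at 0.12. DHX15, which takes spent spliceosomes apart and also serves ribosome assembly, stayed at -0.018 (SE 0.12). The others that remodel the catalytic spliceosome or free its product were small as well, DHX16 at 0.14, DHX38 at 0.22 and DHX8 at -0.051.

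DDX42, a helicase bound to a subunit complex of the early spliceosome, gave the largest difference between time points in this role. Feature 5954 averaged 0.29 ± 0.54 at 24 h (SD, n = 6) and -0.83 ± 0.69 at 48 h (n = 4), where all 4 arrays were below 0 (-1.32, -1.52, -0.31 and -0.16). The difference of 48 h minus 24 h was -1.12 (unadjusted p = 0.00805, adjusted p = 0.999 in limma), and turned by the dye labels the 48 h mean was -0.087. Feature 3225 of the same gene stood at 0.058 ± 0.59 at 48 h. The 2 measured features of DDX42 were not tested against each other.

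The helicases of messenger RNA export had no feature past the test at any time. DDX39B and DDX39A load export factors onto messenger RNA, and DDX19A and DDX19B release it at the nuclear pore. Of their 5 features 4 were above 0 at 24 h and at 48 h and 1 at 72 h (53.4%, 50.3% and 54.3% of all features), and 3 at each time when turned by the dye labels. DDX39B feature 10992 read 0.56, -0.20, 0.99, 1.04, -0.32 and 0.63 at 24 h (mean 0.45 ± 0.58, adjusted p = 0.8427 in limma). The 2 negative arrays are among the 3 with LE in Cy-5, and turned by the dye labels the mean was -0.29. Feature 9613 of DDX39B had a mean of 0.27 (SE 0.13), and DDX39A one of 0.044 (SE 0.12).

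In ribosome biogenesis, 9 of 15 features had a mean above 0 (60.0%, against 54.0% of all features) and the median was 0.12. DDX21, which links ribosomal RNA synthesis and processing, stayed near 0 with a mean of 0.070 (SE 0.18). DDX54 was split between its features, as feature 40481 averaged 0.66 ± 0.76 at 48 h (SD, n = 4, 3 of 4 arrays above 0, adjusted p = 0.4866 in limma) and feature 43404 averaged -0.82 ± 0.76 at 72 h (n = 2, both below 0, adjusted p = 0.4426 in limma). The last value was 0.54 when turned by the dye labels. DDX24 had 3 measured features with means of -0.30, 0.21 and 0.23. Among single-feature genes, DDX49 had the highest mean, 0.30 (SE 0.21), and DHX37 one of -0.14 (SE 0.13).

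The mitochondrial helicases, with 1 measured feature each, had means on opposite sides of 0, and neither passed the test. DDX28, which takes part in assembly of the large mitoribosomal subunit, read 0.31, 0.15, -0.87, -0.97, -0.26 and -1.66 at 24 h, -0.06, 0.40, -1.56 and -0.74 at 48 h, and -1.67 and -0.66 at 72 h (feature 26854). It was below 0 on 9 of 12 arrays, and its mean was -0.74 (SE 0.22, adjusted p = 0.106 in limma). Turned by the dye labels, the mean was 0.21. DHX30, a helicase of mitochondrial RNA granules, had a mean of 0.24 (SE 0.21), and -0.19 turned by the dye labels. DDX11, a DNA helicase of sister chromatid cohesion, had features at 0.17 and -0.084.

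**Figure D4:**
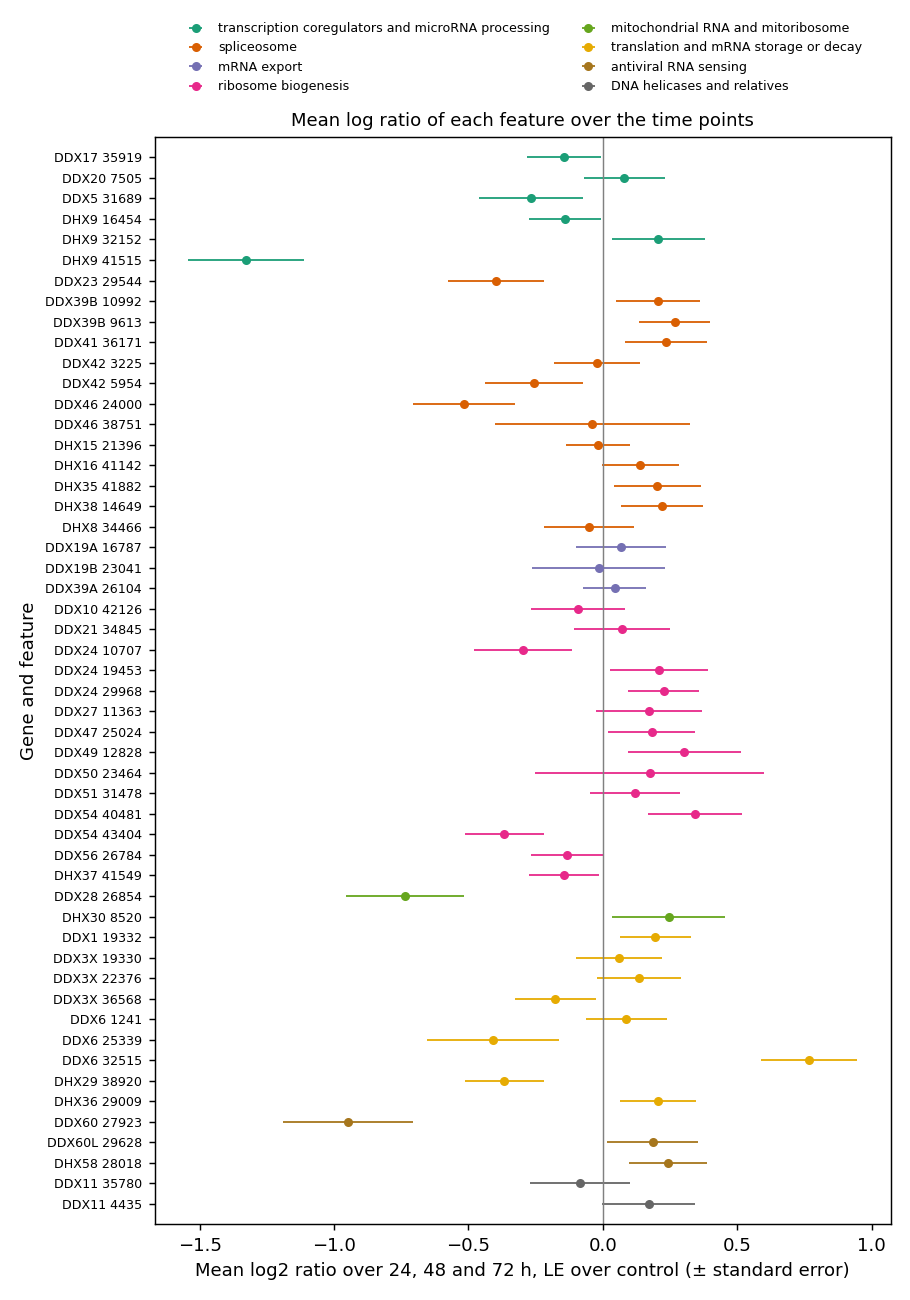
Mean log2 ratio of LE over control across 24, 48 and 72 h (x axis, points) with its standard error (bars) for each of the 52 measured helicase features (rows), coloured by role. DHX9 feature 41515 (-1.33), DDX60 (-0.95) and DDX28 (-0.74) lie lowest, DDX6 feature 32515 (0.77) highest, and most others lie within 0.5 of 0.

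The genes with several measured features show how far a gene can be read from these data. There were 9 such genes with 22 features (DDX11, DDX24, DDX39B, DDX3X, DDX42, DDX46, DDX54, DDX6 and DHX9), and in 6 of them the features had means of opposite sign. The means of a gene's features were as far apart as 1.53 in DHX9 and 1.18 in DDX6, and as close as 0.062 in DDX39B. Over the 9 genes the intraclass correlation of the features was -0.33 to 0.57 on the 12 arrays, with a median of -0.052. The largest ratios of the family, those of DHX9 and DDX6, thus come from genes whose features disagree, and that of DDX60 rests on a single measured feature.

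The dye of the LE sample moved with many ratios. For 26 of 52 helicase features (50.0%) the half-difference between the orientations was larger than the mean, as it was for 56.4% of all features. DDX46 feature 38751 was the clearest case, with -0.70, -0.77, -1.55, -2.50, -0.68 and -0.85 on the arrays with LE in Cy-5 and 0.29, 1.32, 0.31, 1.80, 0.13 and 1.61 on those with LE in Cy-3. The groups of arrays did not overlap, and its sign followed the dye on all 12 arrays, as did that of 2.0% of all features. As deposited its mean over the time points was -0.039, and turned by the dye labels it was -1.11 (adjusted p = 0.02537 in limma). It was the only helicase feature past an FDR of 0.05 in the mean in that reading, where 438 of 17134 features passed. DDX50 feature 23464, of a nucleolar relative of DDX21, read 4.15 on array 1 and -2.60 on array 2 at 48 h, the widest gap in the family at 1 time point.

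**Figure D5:**
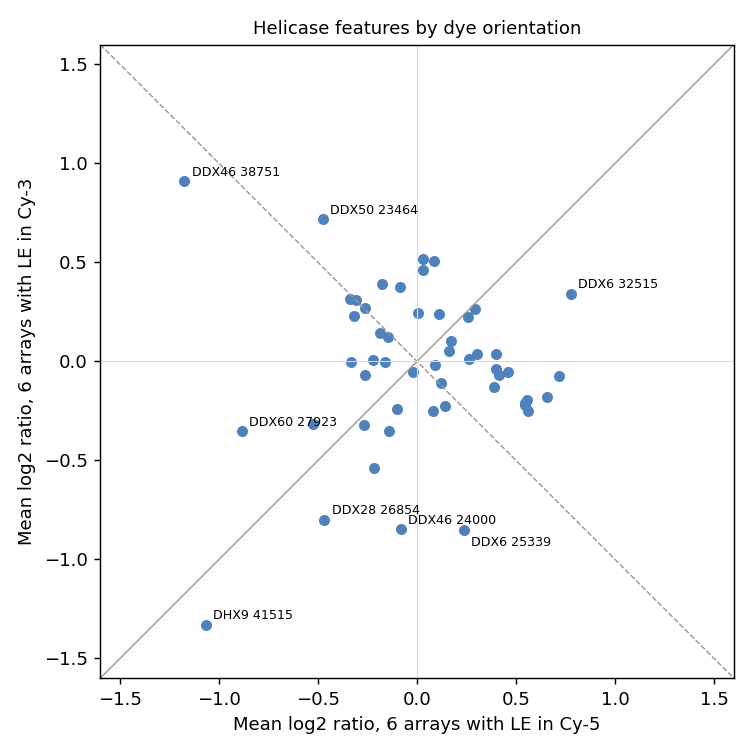
Mean log2 ratio of each of the 52 helicase features over the 6 arrays with LE in Cy-5 (x axis) and the 6 arrays with LE in Cy-3 (y axis); features on the solid diagonal have equal means and those on the dashed diagonal means of opposite sign and equal size. DHX9 feature 41515 lies near the solid line at -1.07 and -1.33, and DDX46 feature 38751 near the dashed line at -1.18 and 0.91.

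Differences between the time points were not resolved. No helicase feature passed an FDR of 0.01 or 0.05 in 48 h minus 24 h, 72 h minus 24 h or 72 h minus 48 h (limma), nor did any feature of the array (0.0%). At an unadjusted p under 0.05 there were 1 (1.92%, against 4.82% of all features), 2 (3.85%, against 3.9%) and 2 (3.85%, against 3.9%). The last pair included DHX9 feature 16454, whose 72 h value lay below that at 48 h by a log2 difference of -1.09 (unadjusted p = 0.00916).

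Helicases outside the family names and the known partners of these enzymes were set beside them. Of the listed helicases with other symbols, 17 of 20 genes had a value (21 of 31 features). The list includes the translation initiation factors EIF4A1 and EIF4A2, the splicing helicase SNRNP200 and the decay factor UPF1. The genes without a value were HFM1, MOV10L1 and TDRD9, which are known from germ cells. In the mean over the time points 1 of 21 features had an unadjusted p under 0.05 (4.76%, against 15.9% of all features), below 0, and their median was -0.024. It was EIF4A3 of the exon junction complex, at -0.53 (SE 0.21, adjusted p = 0.2288 in limma). EIF4A3 averaged -0.88 on the arrays with LE in Cy-5 and 0.20 on those with LE in Cy-3. Next came a feature of EIF4A1 at -0.29 (SE 0.13, adjusted p = 0.3142 in limma), with -0.27 and -0.26 in these orientations. The other measured features of EIF4A1 had means of 0.40, -0.050 and -0.59.

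Of the partners, 39 of 48 genes had a value (62 of 89 features), and 11 of 62 features had such a p (17.7%, against 15.9%), 7 above 0 and 4 below, with a median of 0.015. The smallest p belonged to a feature of MAVS, the mitochondrial adaptor of the antiviral sensors, at 0.70 (SE 0.17, adjusted p = 0.06093 in limma), while its other feature stood at -0.079. FASTKD2, a mitochondrial RNA-binding protein, had -0.62 (SE 0.19, adjusted p = 0.1141 in limma). With LE in Cy-5 and in Cy-3 the first MAVS feature averaged 0.79 and 0.37, and FASTKD2 -0.40 and -0.70. No feature of either list passed an FDR of 0.01 or 0.05.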

How the data were processed

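From images taken in GenePix Pro, the authors kept features that passed quality criteria set in Acuity on all arrays, and deposited log2 ratios made with limma (version not given in the sources used here) by lowess within and quantile normalization between arrays. These values were used as deposited, and no genome build was used. Symbols came from the platform annotation. A model with 1 term per time point was fitted over the 12 arrays in limma 3.58.1 (R 4.3.3, statmod 1.5.0; 9 residual degrees of freedom, prior 6.203), with Benjamini-Hochberg adjustment over 17134 features and a threshold of 0.01. The script was tested on simulated data. Tables were made with pandas 2.3.3 in Python 3.11.15, exact intervals with scipy 1.17.1 and numpy 2.4.6, and plots with matplotlib 3.10.9.

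The labels call the arrays biological replicates and the methods describe cultures in duplicate, so p-values may measure technical spread in part. The number of arrays limits the precision. Members, role lists and tests were chosen with earlier results of these data known. Named were each DHX9 feature, the 4 features of smallest p at each time and in the mean, genes with 3 or more measured features, the antiviral sensors, the best known member of a role (DDX5, DDX17, DDX3X, DDX6, DHX15, DDX21) and the 2 genes of smallest p in each outside list. Other features named with values were chosen after these were seen. The alternatives were ratios turned by the dye labels, a dye term, a replicate block, centred, scaled or quantile-normalized arrays, robust variance, gene means, time points alone, an FDR of 0.05 and each array left out.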

Additional observations from a re-analysis of the deposited data

Results flagged for a closer look

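Of 50 groups of 4 or 6 arrays tested over the named features, 1 held an array far from the others, where chance alone gives about 1 in 20. DDX3X feature 22376 read 0.42 on array 4 at 48 h, the highest of 4, with the nearest array at 0.05 and a gap of 0.919 of the whole range.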

How the results depend on the processing

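The count of 0 helicase features past an FDR of 0.01 held at each time point and between time points under every alternative run, while in the mean of the times it was 2 at an FDR of 0.05 and 1 with the replicate number as a random block and a dye term (DHX9 feature 41515, -1.29, adjusted p = 0.00765 in limma). Same-numbered arrays correlated at r = 0.058 to 0.49 in 8 pairs, 5 of them over 0.1. Each of these pairs also shares the dye of the LE sample, so pairing and dye cannot be told apart. The main model took no pairs. With the replicate number as a fixed block no helicase feature passed an FDR of 0.05 in the mean. Leaving out each array gave 0 to 3 features past an FDR of 0.05 in the mean, with 0 without array 1 or array 2 at 72 h. Turned by the dye labels, the family median was 0.0096 at 48 h and the DHX9 median -0.045 at 72 h, and the sign of the mean changed for 13 of the 25 features named by the rule. Among helicase values with an unadjusted p under 0.05, those that changed sign were DHX9 feature 41515 (0.35 at 24 h, 0.064 in the mean) and feature 16454 (0.15 at 72 h), DDX6 feature 32515 (-0.41 at 72 h), DDX28 (0.50 at 72 h, 0.21 in the mean), DDX39B feature 10992 (-0.29 at 24 h), DDX54 feature 43404 (0.54 at 72 h, 0.19 in the mean), DDX46 feature 24000 (0.40) and DDX23 (0.12), the last 2 in the mean. The cause was not tested. With arrays left out in turn, the family median was -0.013 to 0.095 at 48 h and -0.10 to 0.050 at 72 h. No other order of the rows was found, so that alternative was not run. Signal over background is not held in these log ratios.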
